A study of Mus musculus with 2 samples.

Results

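The keratin cells described here are 1225 tumor cells of 1 mouse lung tumor, TKO2, that carried RNA of the keratins Krt7, Krt8 and Krt18 or of Elf3. They are 34.3% (exact 95% interval 32.8 to 35.9) of the 3568 TKO2 cells with more than 500 detected genes, and 1225 of the 8330 barcodes of the series. A cell was taken when it held at least 2 unique molecular identifiers (UMIs, each one captured RNA molecule) over those 4 genes. It also had to hold fewer than 10 UMIs of the club cell gene Scgb1a1, fewer than 5 over 6 macrophage genes, fewer than 3 of the neuroendocrine peptide gene Calca, and none of Crabp2, Car14 or Cdkn1c. The comparison group is 822 TKO2 cells that met every other condition and held 0 UMIs of the 4 genes, here called keratin-negative cells. A remaining 338 cells held 1 UMI.

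The series holds 2 single-cell RNA libraries, TKO1 and TKO2, each from a single lung tumor of its own mouse, made from live sorted cells with 10x Genomics droplets. Both tumors are small cell lung cancers (SCLC) with the genotype Rb-/-; Trp53-/-; Rbl2-/- and Rosa26membrane-Tomato or membrane-GFP, with a mixed strain background that joins C57BL/6 to 129/SVJ and to 129/SvOla, in mice of 8-9 months. Tumors had been started 7 months earlier by adenoviral Cre under the CMV promoter, given into the trachea, which does not restrict recombination to one lung cell type. With 1 library per tumor there is no replicate, so values are given with intervals that cover counting error only, and no test was possible.

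Keratins are the intermediate filament proteins of epithelial cells, and the pair Krt8 and Krt18, together with Krt7, belongs to simple, single-layered epithelia such as the lining of airways and glands. Such cells are held together by tight junctions, which are built from claudins and seal the gap between neighbours, and by adherens junctions and desmosomes, which carry mechanical load. Pulmonary neuroendocrine cells, the cell type that SCLC most resembles, are themselves epithelial, and SCLC cells commonly express Epcam and simple keratins.

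Among the 4 genes used for the choice, Krt7 led. It gave 2880 UMIs in the keratin cells, or 1051 CPM (its UMIs per 1e6 UMIs of the group), and was detected in 88.9% of them. Krt8, at 631 CPM, was detected in 68.9%, and Krt18, at 387 CPM, in 48.4%. Elf3, an ETS-family transcription factor of epithelia, stood at 100.4 CPM and was detected in 18.1%. The summed count of the 4 genes had a median of 4 UMIs per cell and ran from 2 to 22. It came from 1 gene in 204 cells (16.7%), from 2 genes in 590 (48.2%), from 3 in 360 (29.4%) and from all 4 in 71 (5.80%). These values chose the cells and are a description. In the GRCm38 annotation Krt7 (ENSMUSG00000023039, chr15:101411043-101430313), Krt8 (ENSMUSG00000049382, chr15:101996698-102004482) and Krt18 (ENSMUSG00000023043, chr15:102028180-102032027) lie on the same chromosome within the type II keratin cluster, where Krt18 is the type I member. Elf3 (ENSMUSG00000003051) lies at chr1:135253575-135258568.

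The RNA of these genes was scarce in macrophages of the same library. When each cell was thinned to 1000 UMIs, Krt7 was detected in 39.3% of the 2064 TKO2 cells that met the other conditions, against 1.22% of 82 macrophages of the same library. For Krt8 the shares were 27.1% and 2.44%, for Krt18 17.7% and 2.44%, and for Elf3 5.09% and 0 of 82. The keratins also shared cells. Krt8 was detected in 41.9% of thinned cells with Krt7 and in 17.6% of those without, and Krt18 in 35.2% of thinned cells with Krt8 and in 11.2% of those without.

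The keratin set was narrow. Krt19, another simple epithelial keratin, gave 2 UMIs in all 1225 cells. Krt20, Krt23, Krt80 and the basal cell keratins Krt5, Krt14 and Krt15 gave 0, which allows up to 3 UMIs among 2739909. Krt10, a keratin of stratified epithelium, was at 58.0 CPM in keratin cells and 52.8 CPM in keratin-negative cells. The label of an epithelial state thus rests on a few simple keratins, and the junction genes below bear on it further.

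Cited4, a transcriptional co-activator named as a marker of these cells but not used to choose them, was at 151 CPM (137 to 166) in keratin cells and 28.0 CPM (20.3 to 37.7) in keratin-negative cells, a log2 ratio of 2.43 (1.98 to 2.92). Its relatives did not move with it. Cited1 was at 21.2 and 35.8 CPM, and Cited2 at 96.4 and 125 CPM.

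Across the transcriptome, 95 of 2953 genes with a mean of at least 50 CPM were at least 2-fold higher in keratin cells, a background share of 3.22%, and 37 were at least 2-fold lower, a share of 1.25%. Of the 95, 49 had under 50 CPM in keratin-negative cells and reached the minimum only through the keratin cells, and 24 of the 37 reached it only through the keratin-negative cells, which fixes their direction. The same holds for 15 of the 20 genes with the largest ratios each way, Mapk13 and Cldn7 included. Keratin cells were somewhat deeper, with a median of 1997 UMIs and 1054 genes per cell against 1673.5 UMIs and 895 genes, and CPM corrects for that only on the level of summed counts. Mitochondrial genes took 1.03% and 0.880% of UMIs, and ribosomal protein genes 22.9% and 24.1%. The largest ratio among the 95 genes belonged to Mapk13, a p38 kinase of epithelial tissues, at 189 CPM against 15.0 CPM, a log2 ratio of 3.66 (3.06 to 4.33). Among the others stood Cldn7 at 231 against 30.6 CPM, Cldn3 at 322 against 51.5 CPM and Epcam, the epithelial cell adhesion molecule, at 726 against 154 CPM. The most abundant of the 20 genes with the largest ratios was Cd9, a tetraspanin, at 2326 against 457 CPM. It was detected in 78.2% of thinned keratin cells and 25.4% of thinned keratin-negative cells, but also in 75.6% of thinned macrophages, so it does not mark an epithelial cell by itself.

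**Figure D1:**
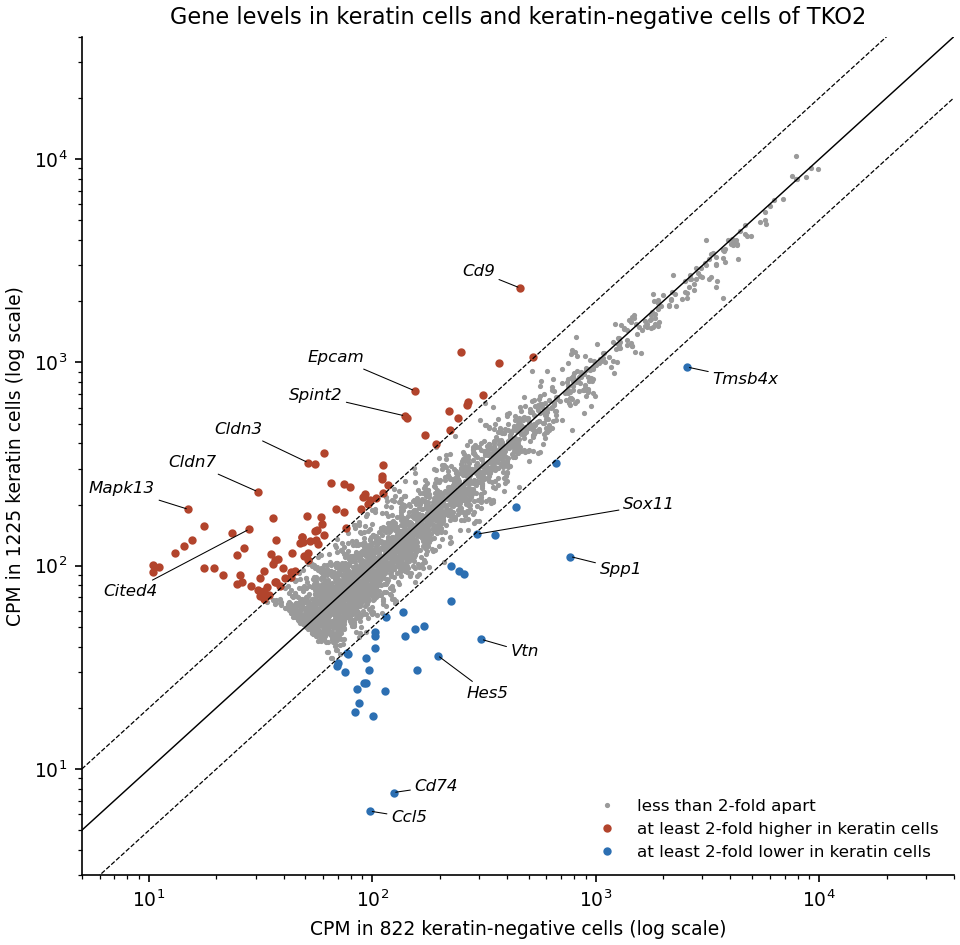
Level of each of the 2953 genes with a mean of at least 50 CPM in 822 keratin-negative cells (x axis, log scale) and 1225 keratin cells (y axis, log scale), 1 point per gene, with dashed lines at a 2-fold difference. The 95 genes above the upper line include Mapk13, Cldn7, Cldn3, Epcam and Cd9, and the 37 genes below the lower line include Spp1, Vtn and Hes5.

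Junction and polarity genes were next described as a group. Over 5 lists of epithelial genes, 72 in all, 21 reached a mean of 20 CPM, 16 of those were at least 2-fold higher and 0 lower, and their median log2 ratio was 2.18 (medians of the genes' lower and upper counting bounds 1.72 and 2.43). Among all 5435 genes at that minimum, 5.41% were higher, 2.02% lower, and the median was 0.00399. A gene can reach the minimum through the keratin cells alone, and 7 of the 21 did so, with under 20 CPM in keratin-negative cells, which fixes their direction. Of the 14 others, 9 were at least 2-fold higher. Cited4, a marker of the label named with values of these data known, is counted in the 16 and in the 9.

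The 6 measured tight junction genes were each at least 2-fold higher in keratin cells, though Cldn6, F11r and Ocln reached the minimum only through those cells. Cldn6, a claudin of embryonic epithelia, was at 86.5 CPM against 6.51 CPM, and the adhesion molecule F11r at 59.9 against 6.51 CPM. Lsr and Ocln, a receptor and a membrane protein of the junction strands, were at 114 against 35.2 CPM and 60.2 against 18.9 CPM. Below the minimum, Cldn4 was at 12.4 against 1.30 CPM. The scaffold Tjp1 was at 17.9 against 15.6 CPM, so the difference did not extend to every component. The lung claudin Cldn18 was not detected in keratin cells.

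Of 5 measured genes of adherens junctions and desmosomes, 4 were higher: Epcam, the desmosome plaque gene Dsp (38.3 against 8.47 CPM), Ctnna1 (64.2 against 24.8 CPM) and Jup (57.3 against 22.2 CPM). Ctnnb1, the beta-catenin shared by junctions and Wnt signalling, was at 161 against 99.7 CPM. E-cadherin, Cdh1, the central protein of epithelial adherens junctions, was at 35.4 against 3.26 CPM, with 97 and 5 UMIs, and was under the minimum. Among 7 measured genes of apical sorting and surface proteases, 5 were higher. They were the adaptor Ap1m2 (73.7 against 9.12 CPM), the recycling GTPase Rab25 (145 against 23.5 CPM), the polarity gene Crb3 (65.0 against 11.7 CPM) and the protease inhibitors Spint1 (49.3 against 8.47 CPM) and Spint2 (546 against 139 CPM). Ap1m2, Crb3 and Spint1, like Dsp, reached the minimum only through the keratin cells, and 2 of the 4 remaining apical genes were past 2-fold. Ezr and Cd24a stayed under 2-fold, with log2 ratios of 0.79 and 0.50.

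The regulators known for the epithelial state were rare. Of 15 listed factors and splicing regulators only 3 were measured, Cited1, Cited2 and Cited4. Of these Cited4, the marker of the label, alone was past 2-fold. Under the minimum, the splicing regulator Esrp1 was at 27.4 against 11.7 CPM, Ovol1 at 19.3 against 1.30 CPM, Klf5 at 26.3 against 5.86 CPM and Grhl2 at 11.7 against 1.95 CPM. Each of these pairs rests on few molecules. Genes of a secretory barrier, such as mucins and secreted antimicrobial proteins, summed to 12.8 CPM over 17 genes and none was measured. A list of 16 genes of the Krt8-high transitional state of injured alveoli had 2 measured genes, 0 past 2-fold either way.

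Of 18 listed genes of mesenchymal cells and matrix, 6 were measured. Of these, 0 were higher and 5 were at least 2-fold lower in keratin cells, with a median log2 ratio of -2.06. Among all genes at the minimum of 20 CPM, 5.41% were higher and 2.02% lower. The lower genes include Spp1, Vtn and Cthrc1, which are also among the 20 genes with the lowest ratios. Zeb2 reached the minimum only through the keratin-negative cells. Col1a1, Col3a1, Twist1, Snai2, Tnc and Mmp14 had 0 UMIs in both groups. Zeb2, a repressor of Cdh1, was at 8.39 against 47.6 CPM, the matrix-associated gene Cthrc1 at 45.3 against 139 CPM, and the actin bundler Fscn1 had a log2 ratio of -1.17. N-cadherin, Cdh2, was at 35.8 against 58.6 CPM. The count was also 5 of 6 when a cluster of cells high in Spp1 (Spp1 is described with the lower genes) was left out, with a median of -1.51. In the cells set aside for Crabp2, Car14 or Cdkn1c it was 3 of 6, with a median of -0.98.

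**Figure D2:**
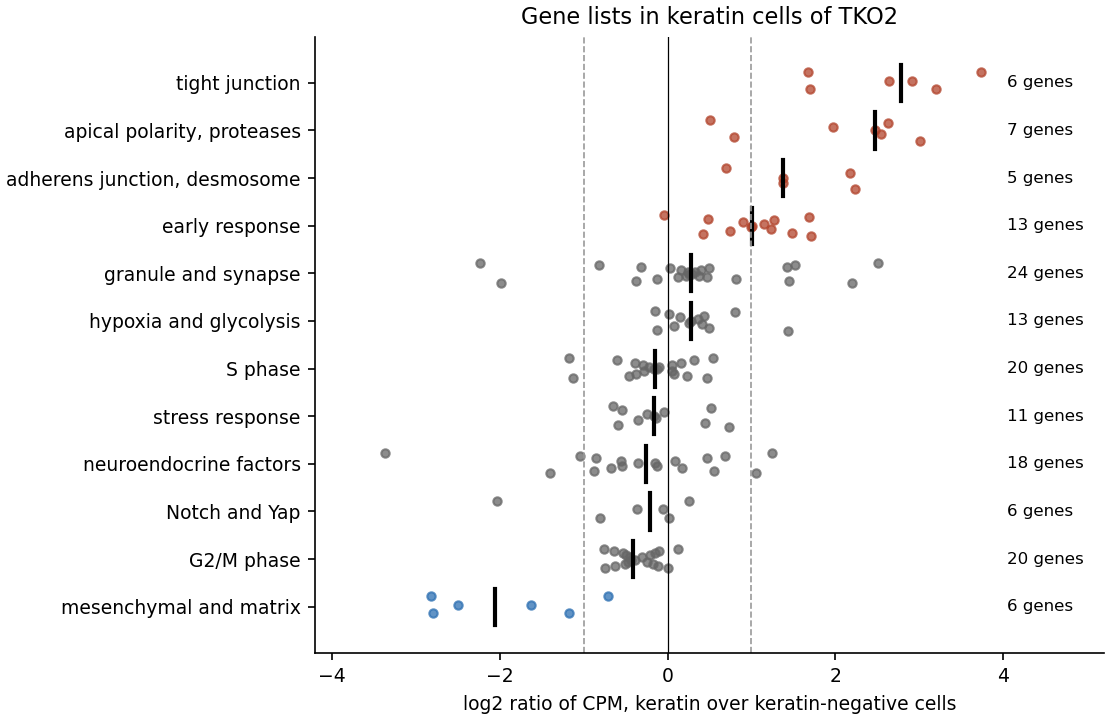
Log2 ratio of CPM, keratin over keratin-negative cells of TKO2 (x axis), for each gene with a mean of at least 20 CPM in 12 gene lists (rows), 1 point per gene, black bars at the list medians and dashed lines at a 2-fold difference. All 6 tight junction genes lie above 1 and 5 of 6 mesenchymal genes below -1, while the medians of the neuroendocrine factor and G2/M lists are -0.26 and -0.41.

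Neuroendocrine transcripts were present in the keratin cells. Foxa2, a lung endoderm factor, was at 215 CPM in keratin cells and 104 CPM in keratin-negative cells. Insm1, Prox1 and Hes6 had log2 ratios of 0.47, 0.68 and 0.56. Other factors were lower: Neurod1, a neurogenic factor, at 3.65 against 37.8 CPM, Lmo1 at 16.1 against 42.3 CPM and Sox11 at 143 against 294 CPM. Nkx2-1, the lung lineage factor, was at 114 against 145 CPM. In all, 18 neuroendocrine factors were measured, 2 were higher and 3 lower, with a median of -0.26. Among all genes at the minimum of 20 CPM, 5.41% were higher and 2.02% lower. Neurod1 and Lmo1 reached the minimum only through the keratin-negative cells. The counts depended on the cells used. Without the cluster of cells high in Spp1, 1 factor was higher and 4 were lower, and Foxa2 fell under 2-fold, at a log2 ratio of 0.99. In cells low in early response genes (described below) 1 was higher and 3 were lower. Among the cells set aside for Crabp2, Car14 or Cdkn1c, 1 was higher and 1 lower.

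Of 24 measured granule and synapse genes, 5 were higher and 2 lower, with a median log2 ratio of 0.28 (median bounds -0.02 and 0.62). The shares among all genes were 5.41% higher and 2.02% lower. The granule proteins Scg2 (59.5 against 10.4 CPM) and Chga (149 against 55.4 CPM), the bombesin-like peptide gene Grp (139 against 48.2 CPM), the amine-making enzyme Ddc (129 against 47.6 CPM) and the synaptic gene Cplx2 (122 against 26.7 CPM) were higher. Stmn2 and Gap43, both genes of growing axons, were lower, at 24.1 against 113 CPM and 14.6 against 58.0 CPM. Scg2 reached the minimum only through the keratin cells and Gap43 only through the keratin-negative cells, which fixes the direction of both.

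Mycn, which was abundant in this tumor, was at 2359 CPM in keratin cells and 3438 CPM in keratin-negative cells. Its neighbours on the chromosome did not follow it. Fam49a was at 992 against 367 CPM, Ddx1 at 10368 against 7870 CPM and Nbas at 232 against 174 CPM.

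Among the lower genes, Spp1, a secreted phosphoprotein, was at 111 CPM in keratin cells and 769 CPM in keratin-negative cells, and Vtn, vitronectin, at 43.4 against 307 CPM. The Notch target Hes5 was at 36.1 against 196 CPM, and the Notch target Hey1 at 21.2 against 86.6 CPM. Much of this came from one cluster of cells. Within it the keratin-negative cells held 4718 CPM of Spp1, and outside it 26.3 CPM. Without that cluster the log2 ratio of Spp1 was -1.41 in place of -2.79, that of Vtn -1.90 in place of -2.82, that of Hes5 -1.85 in place of -2.44 and that of Hey1 -0.92 in place of -2.03. Id3, an inhibitor of bHLH factors, went from -1.75 to -0.36, and Cartpt and Speer4e changed sign, to 0.40 and 1.18. Jam3, a junctional adhesion molecule, and Ptgds, a prostaglandin synthase, were at -2.39 and -2.32 without the cluster, and Tmsb4x, an actin-binding peptide gene, at -1.35. Of the 37 lower genes 31 were still at least 2-fold lower without it, and of the 95 higher genes 92 were still higher.

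Immune RNA also differed between the groups. The macrophage list summed to 22.6 CPM in keratin cells and 159 CPM in keratin-negative cells, led by Cd74 (7.66 against 124 CPM), and the lymphocyte list to 2.92 against 52.8 CPM. The lymphocyte chemokine gene Ccl5 was at 6.20 against 97.7 CPM. Only 11 keratin cells and 20 keratin-negative cells held 2 or more UMIs over 10 immune genes. Without them, which removes cells by these same genes, the log2 ratio of Cd74 was 0.96 in place of -4.02 and that of Ccl5 -1.27 in place of -3.98. Without them 94 of the 95 higher genes and 35 of the 37 lower genes were still past 2-fold.

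Markers of other lung cell types stayed low. Club cell genes summed to 30.3 CPM in keratin cells and 10.4 in keratin-negative cells, the larger value being led by Hp (39 UMIs), and 35 keratin cells held a Scgb1a1 UMI. Alveolar type 1 genes summed to 12.4 CPM, alveolar type 2 genes to 7.66, basal cell genes to 4.38, mesothelial genes to 0.73 and fibroblast genes to 4.01. Ciliated and tuft cell genes were higher in keratin-negative cells, at 35.8 against 20.8 CPM and 48.2 against 11.7 CPM, but each sum was led by a single gene. Tppp3 gave 50 of the ciliated UMIs in keratin-negative cells and stood at 160.4 CPM in those of the Spp1-high cluster, against 8.51 CPM outside it, while the defining ciliated factor Foxj1 had 3 UMIs there and 11 in keratin cells. Dclk1 gave 70 of the tuft UMIs, and the tuft cell genes Pou2f3, Trpm5, Avil and Ptgs1 had 0 in both groups. Trp63, the defining basal cell factor, had 0 UMIs in keratin cells. The endothelial list reached 358 CPM in keratin cells, all of it Vwf, the von Willebrand factor gene, which was at 60.6 CPM in keratin-negative cells. The defining endothelial genes Pecam1, Cdh5, Kdr, Cldn5 and Emcn had 0 UMIs in keratin cells.

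Early response genes, which rise quickly during tissue digestion as well as in living tissue, were higher in keratin cells. They summed to 3931 against 2051 CPM. Of 13 measured genes 7 were past 2-fold, against 5.41% of all genes, with a median log2 ratio of 1.00. Of the 7, Fosb reached the minimum only through the keratin cells. Jun was at 618 against 264 CPM, Btg2 at 312 against 111 CPM and Ier2 at 691 against 313 CPM. The contrast was repeated in cells at or under the median share of early response RNA, 450 keratin and 574 keratin-negative cells. The early response genes still differed there, with 12 of 13 higher, 3 past 2-fold and a median of 0.53, so their part in the other differences was not tested. In these cells all 6 tight junction genes were still past 2-fold, with a median of 2.91, as were 80 of the 95 higher and 28 of the 37 lower genes. Of 11 measured stress genes 0 were past 2-fold. Of 13 hypoxia and glycolysis genes 1 was, Ankrd37, at 160.2 against 59.3 CPM, a count to be read beside the 5.41% of all genes that were higher.

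Cell cycle genes differed less. None of 20 measured genes of G2/M phase was past 2-fold, but 19 of them had a lower level in keratin cells, with a median log2 ratio of -0.41 against 0.00399 for all genes. Of 20 S phase genes 0 were higher and 2 were lower, beside 5.41% and 2.02% of all genes. The 2 were Rrm2, the ribonucleotide reductase subunit, at 195 against 439.7 CPM, and Cdc6, a replication licensing gene. Cdc6 reached the minimum only through the keratin-negative cells.

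Levels were next read by keratin count, and several differed most between cells with none and cells with some. At 1000 UMIs per cell, Cited4 stood at 47.1 CPM in cells with 0 UMIs of the 4 genes, 159 with 1 UMI, 169 with 2, 163 with 3 and 224 with 4 or more. Cldn3 stood at 102, 273, 389, 361 and 363 CPM, and Epcam at 279, 697, 760, 867 and 792 CPM. Most of the step in these genes thus lay between 0 and 1 thinned UMI. Of the 422 cells with 1 thinned UMI 283 were keratin cells by their full counts, as were 142 of the 935 with none. Mycn stood at 3086, 2732, 2132, 1765 and 1702 CPM. Vtn stood at 275, 97.2, 13.5, 6.02 and 0 CPM. Without thinning the order was not kept at each step. Mycn was then at 3438 CPM with 0 UMIs, 2520.2 with 1, 2299 with 2, 3358 with 3, 2361 with 4 to 5, 1901 with 6 to 9 and 1956 with 10 or more, and Vtn went from 79.99 CPM with 2 UMIs to 103 with 3. In the same unthinned data, Cited4 was at 110 CPM in the 338 cells with 1 UMI, just outside the threshold, and at 158 CPM in the 273 cells with 2, just inside it. Cldn3 was at 181 and 249 CPM in the same cells, and Epcam at 513 and 678 CPM.

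**Figure D3:**
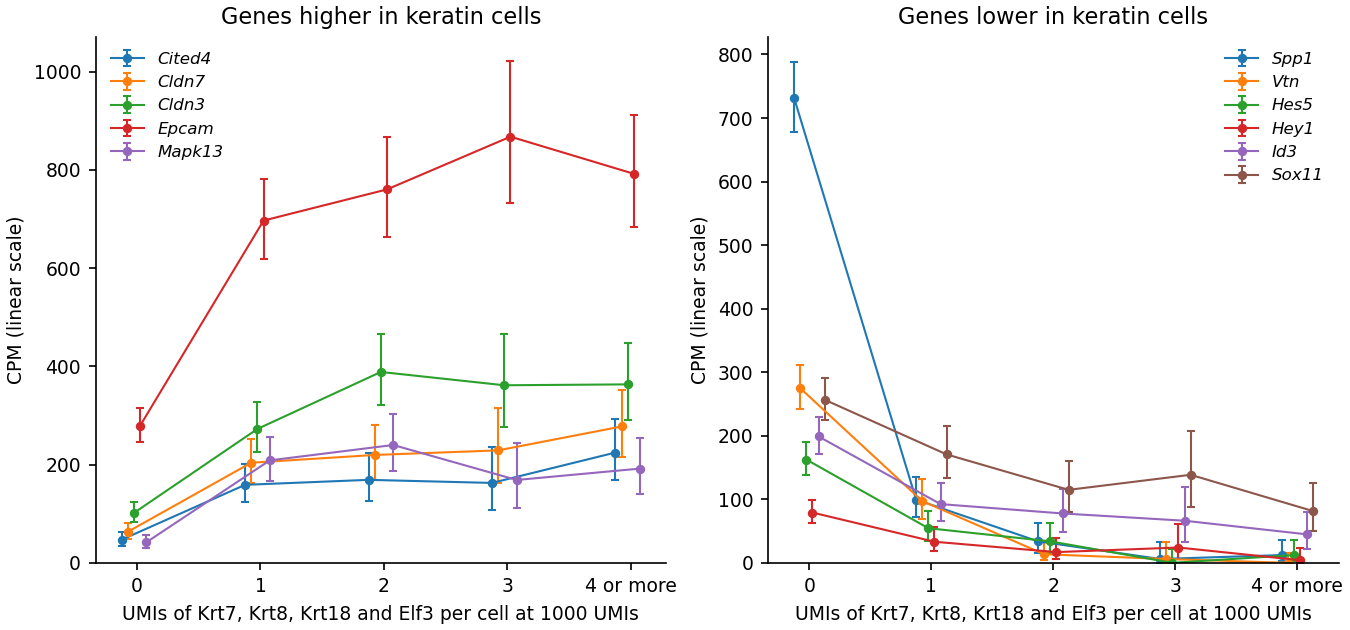
CPM (y axis, linear scale) of 5 genes higher and 6 genes lower in keratin cells, by the number of UMIs of Krt7, Krt8, Krt18 and Elf3 per cell after thinning to 1000 UMIs (x axis), with exact Poisson intervals that cover counting error. Epcam moves from 279 to 697 CPM and Spp1 from 732 to 99.5 CPM between 0 and 1 UMI.

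Keratin cells lay together in expression space. With the 4 genes left out, 73.7% of the 10 nearest neighbours of a keratin cell were keratin cells on average, against 22.05% for keratin-negative cells, 55.3% for cells with 1 UMI and 54.8% of all cells in the comparison. When all TKO2 cells were clustered on all genes, 4 of 10 clusters held 1123 keratin cells (91.7%) and 121 keratin-negative cells (14.7%). Keratin cells made up 62.1, 77.2, 51.0 and 68.5% of clusters 0, 2, 5 and 7. In clusters 1, 3, 4 and 6 they made up 2.40 to 9.06%. Cluster 9 held 14 keratin cells of 67, but 62 of its cells had 2 or more keratin UMIs and its level of the 4 genes, 5333 CPM, was the highest of the 10 clusters. Of those 67 cells, 42 held 3 or more Calca UMIs and 13 held 10 or more Scgb1a1 UMIs, which kept them out. Clustering without the 4 genes gave 4 clusters that held 1116 keratin cells (91.1%), at shares of 53.9 to 73.6%.

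**Figure D4:**
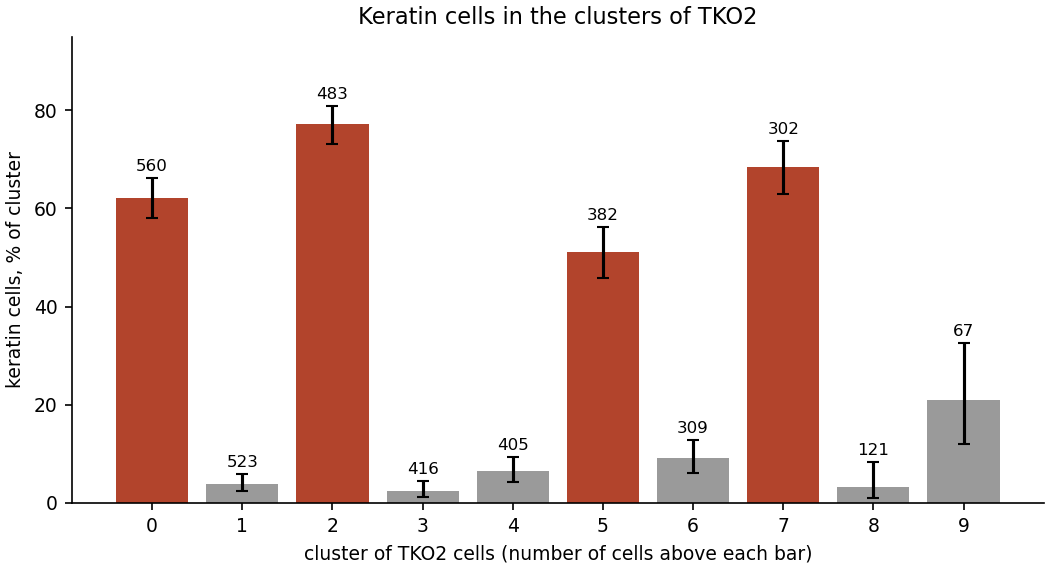
Share of keratin cells (y axis, %) in each of 10 clusters of TKO2 cells (x axis), with the number of cells above each bar and exact 95% binomial intervals that cover counting error. Clusters 0, 2, 5 and 7, in red, are 51.0 to 77.2% keratin cells, and cluster 9, with 67 cells, is 20.9%, although 62 of its cells hold 2 or more keratin UMIs, since other conditions of the rule removed most of them.

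The keratin cells were not uniform. Across clusters 0, 2, 5 and 7, which held 348, 373, 195 and 207 of them, 369 of 3035 genes differed at least 2-fold between the highest and the lowest cluster and 63 at least 4-fold, led by mitosis genes. Nusap1, a spindle gene, was at 5.65, 10.5, 121 and 570 CPM. Clusters 5 and 7 thus stood far above clusters 0 and 2 in it. Krt7 was at 1138, 1396, 820 and 885 CPM in the same order, Krt8 at 652, 1018, 495 and 475 CPM and Krt18 at 278.5, 667, 300.4 and 302 CPM. Cluster 2 was the highest in all 3 keratins. It was also the highest in Cited4 (250 CPM against 98.3 to 163), Cd9 (3980 CPM against 1538 to 2383) and the early response gene Fos (1019 CPM against 312 to 876), and the lowest in Mycn (1167 CPM against 2105 to 3535). These clusters were formed from the same genes, so their differences are a description.

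The same contrast was then made in TKO2 cells that the choice had left out. The 1031 cells set aside for a UMI of Crabp2, a retinoic acid binding protein, Car14, a carbonic anhydrase, or Cdkn1c, a cell cycle inhibitor, included 300 with 2 or more keratin UMIs (29.1%) and 577 with 0. At 1000 UMIs per cell, 14.9% (12.1 to 18.05) of cells with one of these genes held 2 or more keratin UMIs, against 30.7% (28.9 to 32.5) of cells without. Among the set-aside cells, 94 of the 95 higher genes were again higher in the keratin cells (98.9%, against 50.2% of all genes). Of the 95, 66 were at least 2-fold higher (69.5%, against 2.95% of all genes). Of 36 lower genes with at least 10 UMIs, 36 were again lower (against 49.8% of all genes), 13 of them at least 2-fold (36.1%, against 0.474%). Cldn7 had a log2 ratio of 5.18 there, Rab25 of 4.48 and Cldn3 of 2.90, and all 6 tight junction genes were past 2-fold. These cells come from the same library and tumor and are no replicate.

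TKO1 held few cells without keratin RNA. Its cells nearly all held Calca, so the rule as written left 245 cells, 225 of them with keratin and 7 with none, too few to compare. Without the Calca condition 2400 of 2452 TKO1 cells (97.9%) held at least 2 UMIs of the 4 genes. Krt7 was at 2152 CPM in those cells, Krt8 at 1537, Krt18 at 3421 and Elf3 at 249 CPM, and the junction and marker genes Cldn7, Epcam and Cited4 were at 541, 1272 and 428 CPM. Of 78 TKO1 macrophages, 10 held 2 or more such UMIs (12.8%, 6.32 to 22.3), against 2 of 88 in TKO2 (2.27%), so the background was also higher in TKO1. At 1000 UMIs per cell the shares in TKO1 were 97.0% of 1698 cells and 12.1% of 66 macrophages. In a comparison chosen after the data had been seen, 552 TKO1 cells with more than 8 keratin UMIs at 1000 UMIs per cell were set against 582 with 5 or fewer. Of 93 higher genes of TKO2, 60 were higher there too (64.5%, against 41.4% of all genes), with a median log2 ratio of 0.10 and 0 past 2-fold. Of 27 lower genes, 22 were lower (81.5%, against 58.6%), and 6 were at least 2-fold lower (22.2%, against 3.69%). The libraries shared 22 barcodes.

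**Figure D5:**
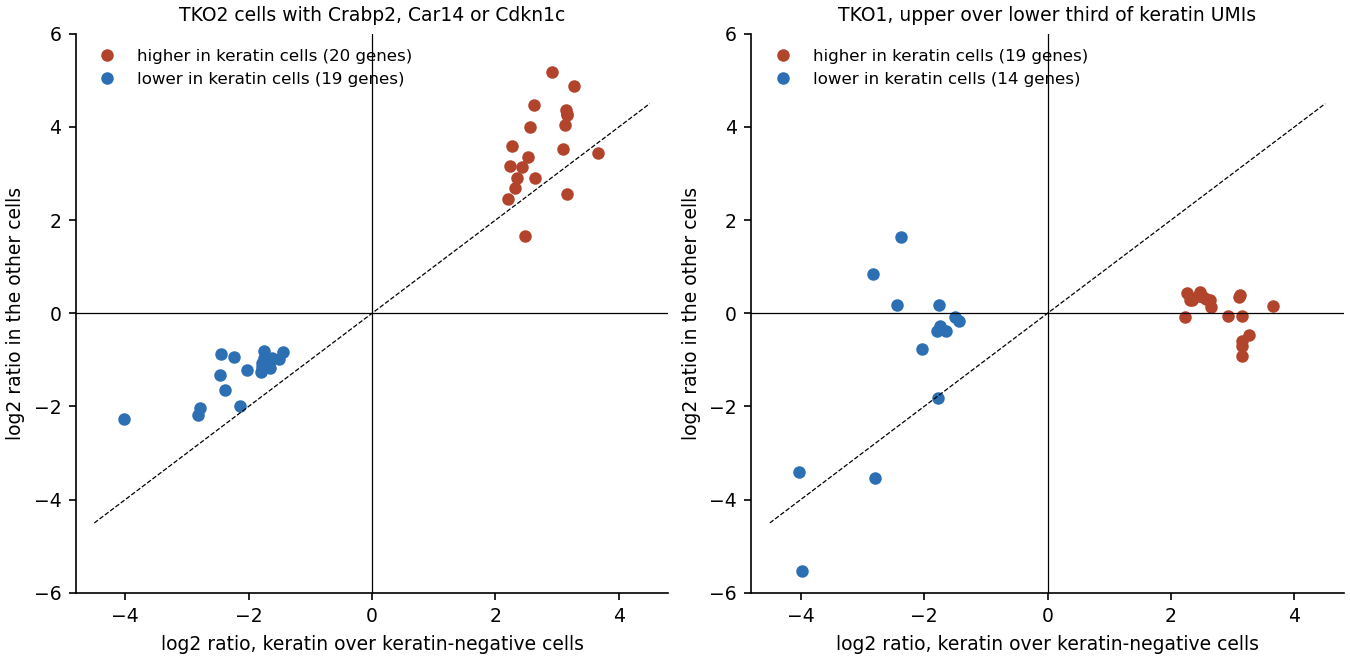
Log2 ratio of the genes with the largest ratios in TKO2 keratin cells (x axis) against their log2 ratio in other cells (y axis), with a dashed line of equality. In the set-aside TKO2 cells (left) all 20 higher genes lie above 0 and all 19 lower genes plotted are under 0, and in TKO1 (right) the 19 higher genes lie close to 0.

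Promoters of the higher genes were read for letters they might share. The search covered both strands of the 150 bases before the RefSeq start of each gene, at the first-listed start where RefSeq gives several, for the 14 of the 20 genes with the largest ratios that RefSeq sequences matched. CAGCTG, a form of the E-box that bHLH factors bind and its own reverse complement, occurred in 5 of 14 (35.7%): Cib3, Cryba2, Tmem184a, Nrtn and Cd9. The window of Cd9 overlaps a GENCODE exon of the gene. That of Cib3 overlaps none, but its CAGCTG follows an ATG in the same reading frame with no stop codon between, so it may be coding sequence. CAGCTG occurred in 1 of 13 matched genes with the lowest ratios (7.69%), in 0 of the 4 genes used for the choice, and in 8.21% of all 27025 promoters. TATAAA occurred in 1 of the 14 against 8.08% of all, GGAAGT, the ETS core, in 1 against 13.9%, and AACCNGGTT, the grainyhead motif, in 0 against 0.152%. A match is a description of letters and shows no binding. The windows of Cryba2, a crystallin also made by endocrine cells (116 against 13.0 CPM), of Tmem184a, a transmembrane protein gene (125 against 14.3 CPM), and of Nrtn, the ligand neurturin (97.8 against 17.6 CPM), are given as examples from GRCm38.p6, all on the minus strand, 5′ to 3′, with CAGCTG in capitals. None of these 3 windows overlaps an exon of the GENCODE annotation, and that of Tmem184a lies inside the gene as GENCODE draws it. They span chr1:74893144-74893293, chr5:139814284-139814433 and chr17:56757549-56757698.
Cryba2: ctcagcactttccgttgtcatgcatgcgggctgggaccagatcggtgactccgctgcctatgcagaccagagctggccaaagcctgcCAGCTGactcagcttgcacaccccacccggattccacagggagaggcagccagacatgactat
Tmem184a: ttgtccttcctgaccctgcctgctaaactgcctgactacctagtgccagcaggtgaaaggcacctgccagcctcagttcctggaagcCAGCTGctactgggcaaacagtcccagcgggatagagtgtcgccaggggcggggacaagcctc
Nrtn: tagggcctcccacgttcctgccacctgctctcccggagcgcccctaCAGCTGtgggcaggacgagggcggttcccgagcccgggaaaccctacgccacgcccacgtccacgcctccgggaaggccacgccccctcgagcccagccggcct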

How the data were processed

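The authors dissected 1 tumor per mouse, sorted live cells and made 10x Genomics libraries. Cell Ranger, Seurat and mm10 are named in the submitters' processing notes, with no versions given in the sources used here. The deposited matrices hold raw UMI counts per gene and cell for 27998 gene identifiers, of which 27645 matched GENCODE M21. TKO1 held 5285038 UMIs and TKO2 8291430.

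UMI counts were summed over the cells of a group and divided by the group's total (CPM). Intervals are exact (Poisson for levels, conditional binomial for ratios, Clopper-Pearson for shares, 95%) and cover counting error only. A limit of 3 UMIs was used where none was found. Because each group comes from 1 library and cells are not replicates, no test was run. A gene counted as higher or lower at a 2-fold ratio, with a mean of at least 50 CPM (20 CPM for gene lists), leaving out the genes of the rule. Named are the genes of the rule, Cited4, listed genes, and, in each direction, the 20 genes with the most extreme ratio. Keratin cells and gene lists were chosen with earlier results of these data known. Thinning drew 1000 UMIs per cell at random (shallower cells left out). Clusters came from Seurat 5.3.0 in R 4.3.3, with genes in at least 10 cells, 1000 variable genes and 10 principal components. Scrublet in scanpy 1.11.5 called 0 of 3568 cells doublets, so doublets were kept, and 136 cells with the highest scores were removed in an alternative. TMM factors came from edgeR 4.0.16, and sums and intervals were computed in Python 3.11.15 (pandas 2.3.3, numpy 2.4.6, scipy 1.17.1). Values of some genes are not reported here. The calculation was tested on simulated data. Alternatives varied cell filters, the rule, thinning, scaling and CPM minimums.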

Additional observations from a re-analysis of the deposited data

How the results depend on the processing

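Each of 6 results was recomputed under up to 21 alternative settings and 4 more chosen after seeing the data. Cited4 and the medians of both gene lists kept their sign wherever they were computed. The bounds of the granule median, -0.02 and 0.62, lay on both sides of no difference, so its direction is not clear. Of 16 settings 9 moved the share of keratin cells. With cells of 0 or 1 keratin UMI as the comparison, 63 genes were higher, Cited4 had a log2 ratio of 1.59 and the epithelial lists a median of 1.55. At a minimum of 20 CPM 294 genes were higher and 110 lower, at 100 CPM 44 and 14, and with no minimum 1688 and 1028. Without Krt7 in the rule Cited4 was at 1.76, the epithelial median at 1.44 and the share of keratin cells at 21.3%. Without Krt8 Cited4 was at 1.87 and the share 28.8%, and without Krt18 the share was 31.2%. Applying the rule after thinning gave a median of 1.60 and a share of 23.9%. Keeping cells with Crabp2, Car14 or Cdkn1c for comparison gave a median of 2.77. The share was 36.5% with more than 1000 genes per cell, 43.8% at 1 keratin UMI or more, and 26.7% at 3 or more. Of the 4, the set-aside cells gave 16 lower genes and 3.14 for Cited4, cells low in early response genes a share of 23.2%, and leaving out the Spp1-high cluster a share of 36.7%. The neuroendocrine granule median stayed between 0.20 and 0.34 throughout. No paired analysis was possible because each tumor gave 1 library and the groups compared are cells of the same library. The planned comparison by sign in TKO1 was not run, since 7 keratin-negative cells remained there. At a median of 1673.5 UMIs per cell a keratin-negative cell may hold unsampled keratin RNA.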

Other observations

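Other genes among the 20 with the largest ratios were the following. Nrtn was at 97.8 CPM in keratin cells against 17.6 CPM in keratin-negative cells and Enho, which encodes a secreted peptide, at 97.1 against 19.5 CPM. In the set-aside cells their log2 ratios were 1.66 and 2.70. Espn, an actin bundler of microvilli, was at 318 against 55.4 CPM, and Anxa4, a membrane-binding annexin, at 172 against 35.8 CPM.

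Of 4 measured interferon and antigen presentation genes, 1 was higher, Ifitm3, an interferon-induced membrane protein gene, at 51.1 against 7.17 CPM with 140 and 11 UMIs. It reached the minimum of 20 CPM only through the keratin cells, which fixes its direction. Among all genes at that minimum 5.41% were higher and 2.02% lower. The gene at the other extreme was B2m, the light chain of MHC class I, at 94.2 against 243 CPM. Without the cells that held 2 or more immune UMIs its log2 ratio was -0.76 in place of -1.37. Of 6 measured Notch and Yap genes 0 were higher and 1, Hey1, was lower, a list that did not hold Hes5. Without the Spp1-high cluster 1 was higher, Hes1, and 0 were lower. The Notch ligand Dll3 was at 88.7 against 92.5 CPM and the Notch target Hes1 at 20.4 against 20.2 CPM. Without that cluster Hes1 was at 19.0 against 7.74 CPM, a log2 ratio of 1.30 (0.30 to 2.44), and keratin-negative cells inside it held 86.4 CPM. Yap1, which marks non-neuroendocrine SCLC, had 0 UMIs in both groups.

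Calca, which the rule capped at 2 UMIs per cell, was still detected in 50 keratin cells (4.08%) and in 9 keratin-negative cells (1.09%).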
